A study of Mus musculus with 13 samples.

Results

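The collagen chain genes are the genes whose symbols consist of Col, a type number, the letter a and a chain number, such as Col1a1 or Col4a2. The bulk table listed 44 of them among its 24411 genes, and membership was set by the symbol alone. All libraries came from skeletal muscle of wild-type C57BL/6 mice aged 2 months, with no transgene or gene deletion named in the labels. The 11 bulk libraries were Smart-seq2 libraries of polyA RNA from sorted cells, and 2 single-cell libraries held mononuclear cells of whole uninjured hindlimb muscle, sequenced by a droplet method that reads the 3' end of transcripts. The SMMC, named in the labels as smooth-muscle and mesenchymal-like cells, were sorted as CD31-, CD45-, Sca1-, Vcam1- and ITGA7+, and 3 libraries were made directly after the sort (fresh SMMC). A further 3 libraries were made after 3 days of culture (proliferating SMMC), and 3 after culture that let the cells differentiate, for a time that the labels used here do not give (differentiating SMMC). The MuSC, quiescent muscle stem cells, were sorted as CD31-, CD45-, Sca1-, Vcam1+ and ITGA7+, and had 2 libraries without culture. Libraries carry numbers within a group, but no label ties a number to an animal of its own, and the spread that the p-values rest on may therefore be technical.

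Collagens are built from chains that wind around each other in threes, and each type uses its own set of chains. Types I, II, III, V, XI, XXIV and XXVII are classed as fibril-forming. Fibril-associated types such as XII, XIV, XVI, XIX, XX and XXII sit on or near fibrils and at tissue borders. Type IV forms the sheet of the basement membrane that wraps muscle fibres, stem cells, vessels and nerves, type VI forms beaded filaments beside it, and types XV and XVIII link basement membranes to the matrix around them. In resting muscle most fibrillar collagen is made by fibroblast-like cells and tendon cells, while type VI and type V collagens have been described in the niche of the stem cell.

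Markers of the labelled cell types were high in their groups, and markers of other cell types were also present. Summed levels of 9 muscle stem cell markers ran from 28576 to 41295 FPKM (fragment counts divided by transcript length and by library size) in MuSC and from 803 to 1118 in fresh SMMC. Summed levels of 8 vascular smooth muscle markers ran from 1188 to 1845 FPKM in fresh SMMC and from 54.2 to 106 in MuSC. The fresh SMMC libraries also held 9083 to 18546 FPKM of 9 tenocyte markers, against 13.0 to 22.7 in MuSC and 7.52 to 22.4 in proliferating SMMC. Tenocytes are the fibroblast-like cells of tendon. The tenocyte list includes Tnmd, Fmod, Thbs4 and Scx, and Scx was below 0.1 FPKM in both MuSC libraries. For 10 Schwann cell markers the sums were 735 to 1097 FPKM in fresh SMMC, 61.1 to 77.5 in MuSC and 15.7 to 37.0 in proliferating SMMC. For 9 markers of fibro-adipogenic progenitors, the fibroblast-like cells between muscle fibres, they were 4049 to 8120 FPKM in fresh SMMC, 689 to 817 in MuSC and 887 to 1435 in proliferating SMMC. Markers of pericytes, the cells that wrap capillaries, gave 1479 to 3817 FPKM in fresh SMMC, 102 to 108 in MuSC and 10.6 to 17.0 in proliferating SMMC. In differentiating SMMC these sums were 16.7 to 41.0 FPKM for tenocyte, 20.9 to 32.8 for Schwann cell, 178 to 380 for fibro-adipogenic and 28.4 to 47.6 for pericyte markers. In such bulk libraries fewer cells of a type and less RNA per cell cannot be told apart.

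Together the 44 genes took 0.916% ± 0.288 of all FPKM in fresh SMMC (SD, n = 3). Their share was 0.0203% ± 0.00364 in proliferating and 0.0437% ± 0.0223 in differentiating cells (SD, n = 3 each), and MuSC held 0.111% ± 0.0127 (SD, n = 2). The fresh SMMC libraries stood at 1.24%, 0.818% and 0.690%, and the MuSC libraries at 0.120% and 0.102%. Proliferating SMMC stood at 0.0164%, 0.0209% and 0.0236%, and differentiating SMMC at 0.0583%, 0.0547% and 0.0180%. Every fresh SMMC library lay above every other library, both MuSC libraries lay between the fresh and the cultured SMMC, and differentiating replicate 3 lay within the range of the proliferating libraries. The number of collagen chain genes at 1 FPKM or more was 31 to 34 in fresh SMMC, 12 or 13 in proliferating SMMC, 17 to 22 in differentiating SMMC and 18 in each MuSC library.

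The make-up of the collagen RNA differed as well. Col1a1 and Col1a2, the chains of type I collagen, made up 73.4%, 67.7% and 66.3% of the collagen FPKM in the fresh SMMC libraries, against 3.93% and 3.66% in the MuSC libraries. In MuSC the leading gene was Col3a1, the chain of type III collagen, with 46.0% and 36.8%, against 3.36% to 5.14% in fresh SMMC. Proliferating SMMC were led by Col5a2, and there the type V chains held 25.0% to 30.3% and the type VIII chains 18.8% to 25.6% of the collagen FPKM. Of the differentiating SMMC libraries, 1 and 2 were led by Col1a2, with 56.6% and 55.5% from the type I chains, and library 3 by Col5a2, with 21.7% from the type I chains.

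**Figure D1:**
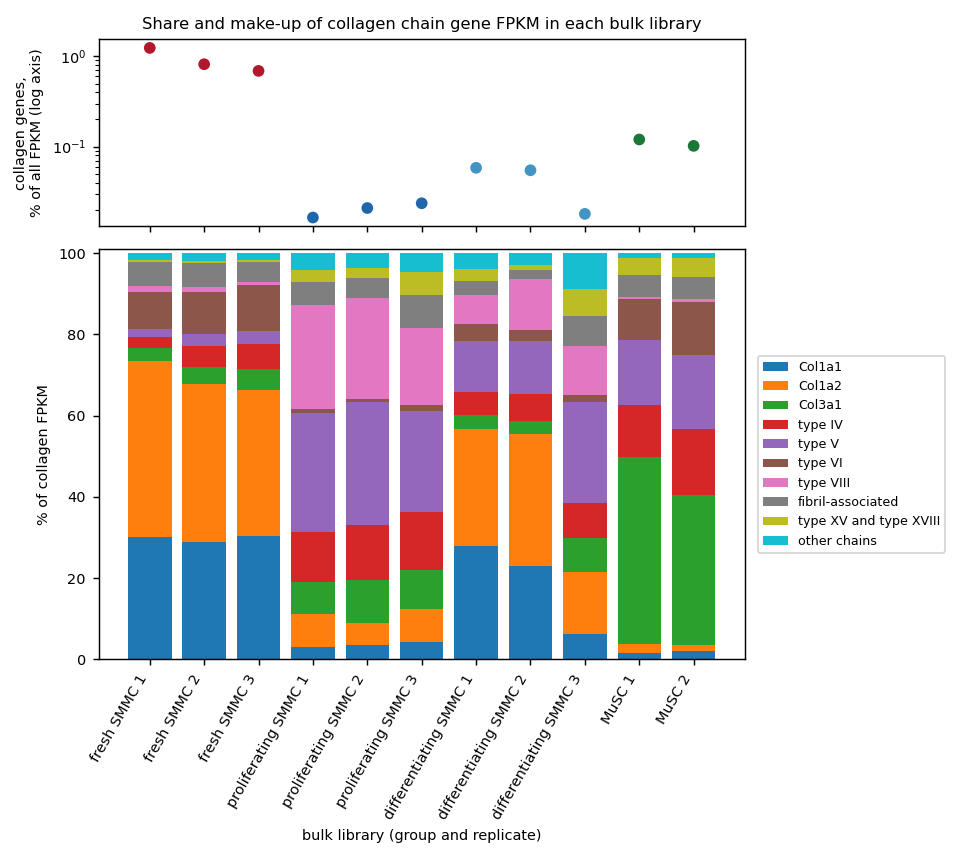
The upper panel plots, for each of the 11 bulk libraries, the percentage of all FPKM held by the 44 collagen chain genes on a log axis, and the lower panel splits that collagen FPKM into chains and types as stacked percentages. Type I chains fill 66.3% to 73.4% of the fresh SMMC bars and under 4% of the MuSC bars, where Col3a1 takes 36.8% and 46.0%.

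Since type I and type III chains changed places most between the sorted populations, the sequences just before the transcription starts of Col1a2 and Col3a1 are shown. They were taken from RefSeq promoter entries on GRCm38.p6, which is the assembly that mm10 names, and are the 250 bases upstream of the start on the plus strand. The positions are chr6:4505368-4505617 for Col1a2 and chr1:45311288-45311537 for Col3a1, both outside the transcripts. Capitals mark CCAAT and TATAAA, which were searched on both strands.
Col1a2: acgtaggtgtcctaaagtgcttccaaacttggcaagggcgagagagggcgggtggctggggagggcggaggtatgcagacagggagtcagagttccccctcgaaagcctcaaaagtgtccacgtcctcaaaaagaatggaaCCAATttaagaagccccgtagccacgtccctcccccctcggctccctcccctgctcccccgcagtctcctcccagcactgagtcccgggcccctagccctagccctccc
Col3a1: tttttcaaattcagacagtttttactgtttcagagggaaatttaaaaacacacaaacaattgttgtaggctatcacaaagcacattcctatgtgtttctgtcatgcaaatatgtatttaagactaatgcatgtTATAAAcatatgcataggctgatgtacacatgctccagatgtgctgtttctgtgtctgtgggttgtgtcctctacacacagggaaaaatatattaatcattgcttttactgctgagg
The Col1a2 window held 1 CCAAT, at position -109 from the start, 2 copies of GGGCGG and no TATAAA. The Col3a1 window held 1 TATAAA, at position -117, and neither CCAAT nor GGGCGG. Over all 32851 listed promoters, 33.8% held CCAAT, 12.4% TATAAA and 32.7% GGGCGG within the same 250 bases on either strand. Promoters were listed for 35 of the 44 genes, in 38 windows, of which 13 held CCAAT, 5 TATAAA and 22 GGGCGG. A match describes the letters and is not evidence that a factor binds there.

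Of the 44 genes, 36 reached 1 FPKM in at least 2 libraries and were tested with limma on log2(FPKM + 1), together with all 13233 genes that did. Folds and log2 differences below are on that scale, where the added 1 makes changes of weakly expressed genes look smaller, and levels are plain FPKM, which is per transcript length. The other 8 were Col4a6, Col6a4, Col6a5, Col6a6, Col9a1, Col9a3, Col10a1 and Col17a1, none of which reached 1 FPKM in 2 libraries. A chain that passed only through the group in which it was high had to differ, so the counts below describe the 36 and not all 44. The plot of all genes by library shows the 44 by structural type.

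**Figure D2:**
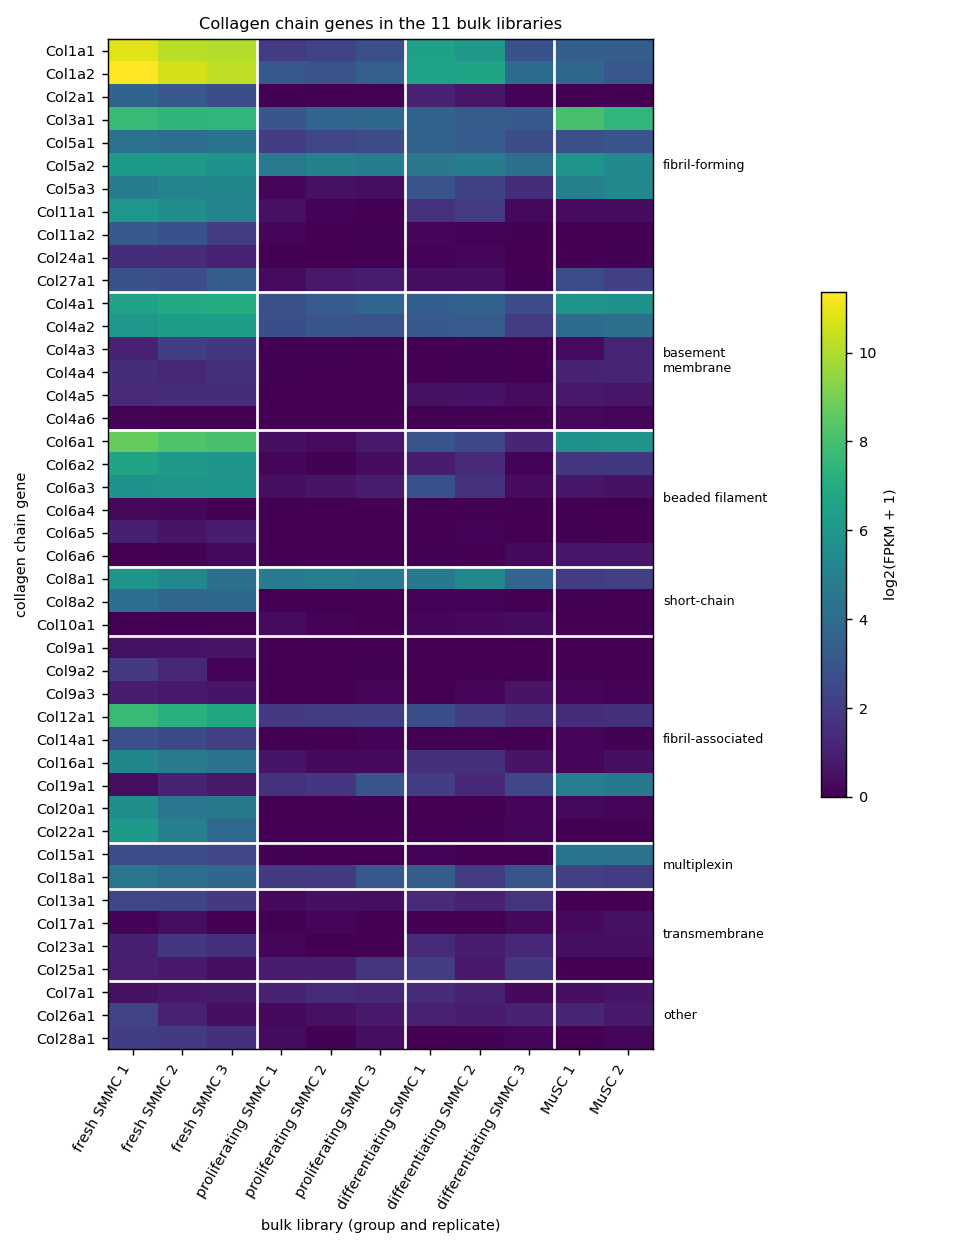
Each row is 1 of the 44 collagen chain genes, ordered by structural type, each column 1 of the 11 bulk libraries, and the colour gives log2(FPKM + 1). Most rows are brightest in the 3 fresh SMMC columns, Col19a1 and Col15a1 are brightest in the 2 MuSC columns, and Col8a1 lies between 11.9 and 58.4 FPKM across the 9 SMMC columns.

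Fresh SMMC were first compared with MuSC, which asks how the collagen program of the Vcam1- cells differs from that of the stem cells. Among the 36 tested genes, 26 were higher and 2 lower in fresh SMMC (limma, Benjamini-Hochberg adjusted p under 0.05), and 8 were not called. Of all genes tested, 41.7% were called higher and 18.0% lower. The median log2 difference was 1.91 over the 36 genes and 0.45 over all genes tested. The all-gene median depends on the scaling: it was 0.07 with TMM rescaling, where 24 collagen genes were higher and 3 lower, and -0.04 with quantile normalization, with 22 higher and 2 lower. The share of all calls that were higher was 69.8% as deposited, 52.5% with TMM and 48.1% with quantile normalization, and for the collagen genes it was 92.9%, 88.9% and 91.7%. The tenocyte, Schwann cell, pericyte and fibro-adipogenic markers given above were all higher in fresh SMMC as summed levels. So were those of Sfrp5 mesenchymal cells (371 to 626 against 14.1 to 18.7 FPKM), capillary endothelium (284 to 327 against 13.9 to 18.5), endothelium in general (139 to 243 against 26.2 to 39.6) and erythroid cells (332 to 885 against 6.84 to 13.2). Sums of venous endothelial markers were lower in fresh SMMC (59.5 to 79.1 against 107 to 153 FPKM). Those of macrophage (6.87 to 12.3 against 23.9 to 33.2) and B cell markers (0.257 to 0.660 against 1.15 to 2.04) were lower too. The ribosomal transcript Rn45s stood at 34203 to 51536 FPKM in fresh SMMC and at 123 and 113 FPKM in MuSC, a gap that cannot be told apart from the groups. With Rn45s left out and totals made equal, 26 collagen genes were again higher and 2 lower. The part of the marker genes in these differences was not tested.

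On the log2(FPKM + 1) scale the type I chains had the largest differences among the 36. The added 1 matters for this ranking, because chains close to 0 FPKM in MuSC lose most by it. Col22a1, for example, averaged 37.0 FPKM in fresh SMMC against 0.0246 in MuSC. Col1a1 stood at 1833, 1169 and 1054 FPKM in fresh SMMC and at 9.93 and 9.84 FPKM in MuSC. It was 121-fold higher in fresh SMMC (log2 difference 6.91, SE 0.79, limma adjusted p = 1.2e-05), and the groups lay far apart. Col1a2 stood at 2634, 1579 and 1245 FPKM in fresh SMMC and at 13.0 and 7.57 FPKM in MuSC, 158-fold higher (log2 difference 7.30, SE 0.63, limma adjusted p = 1.1e-06). Both chains were highest in fresh SMMC replicate 1, and the ratio of Col1a1 to Col1a2 was 0.696 to 0.847 in fresh SMMC.

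Type III and the regulatory type V chains behaved otherwise. Col3a1 stood at 204, 171 and 178 FPKM in fresh SMMC and at 268 and 175 FPKM in MuSC. The groups overlapped, and the log2 difference of -0.23 (SE 0.26) was not called (limma adjusted p = 0.476). With TMM rescaling Col3a1 was called lower in fresh SMMC, with a log2 difference of -0.82. The ratio of Col3a1 to Col1a1 was 0.112 to 0.169 in fresh SMMC and 27.0 and 17.7 in MuSC.

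Col5a2, a chain of the type V collagen that sets fibril diameter, stood at 72.8, 68.4 and 56.1 FPKM in fresh SMMC and at 57.3 and 41.9 FPKM in MuSC. Col5a3, a less common chain of the same type, stood at 27.3, 34.4 and 36.0 FPKM in fresh SMMC and at 30.3 and 37.7 FPKM in MuSC. For both chains the groups overlapped and no difference was called (limma adjusted p = 0.142 and 0.896). Their partner Col5a1 was lower overall and did differ, at 17.8 ± 2.03 FPKM in fresh SMMC (SD, n = 3) and 6.41 ± 0.869 FPKM in MuSC (SD, n = 2), a 2.54-fold difference (limma adjusted p = 0.00137).

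Type XI collagen is known from cartilage and tendon, where it starts fibrils. Col11a1 stood at 66.5, 46.8 and 32.4 FPKM in fresh SMMC and at 0.263 and 0.281 FPKM in MuSC, 37.4-fold higher (log2 difference 5.23, SE 0.44, limma adjusted p = 1.0e-06). All 3 fresh libraries lay above both MuSC libraries. Its partner Col11a2 was 6.32-fold higher (5.84 against 0.0222 FPKM on average, limma adjusted p = 5.8e-06).

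The basement membrane chains differed less. Col4a1 stood at 92.0, 123 and 129.5 FPKM in fresh SMMC and at 57.1 and 56.7 FPKM in MuSC, 1.98-fold higher (log2 difference 0.98, SE 0.31, limma adjusted p = 0.0157). The groups did not overlap, but the call was lost with TMM rescaling (log2 difference 0.40) and without fresh SMMC replicate 3, MuSC replicate 1 or MuSC replicate 2 (0.89, 0.99 and 0.98). Col4a2 stood at 64.8, 79.7 and 79.1 FPKM in fresh SMMC and at 14.7 and 17.4 FPKM in MuSC, 4.42-fold higher (log2 difference 2.14, SE 0.32, limma adjusted p = 1.1e-04). These chains assemble as trimers of α1 and α2, and their ratio was 1.42 to 1.64 in fresh SMMC, 3.88 and 3.25 in MuSC. The genes lie head to head on chromosome 8 of GRCm38.p6, Col4a1 from 11198423 to 11312889 on the minus strand and Col4a2 from 11312805 to 11449287 on the plus strand. The gene records overlap by 85 bases at their starts, and with no strand setting known for the counting, reads in those bases cannot be assigned. Col4a3, Col4a4 and Col4a5 were at most 3.37, 1.99 and 1.82 FPKM in any library.

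The chains of type VI collagen diverged from each other. Col6a1 stood at 406, 298 and 269 FPKM in fresh SMMC and at 55.2 and 58.0 FPKM in MuSC, 5.56-fold higher (log2 difference 2.48, SE 0.40, limma adjusted p = 1.9e-04). Col6a2 stood at 98.1, 70.2 and 57.5 FPKM in fresh SMMC and at 2.45 and 2.63 FPKM in MuSC, 21.1-fold higher (log2 difference 4.40, SE 0.34, limma adjusted p = 4.9e-07). Col6a3 stood at 54.2, 57.5 and 61.3 FPKM in fresh SMMC and at 0.617 and 0.406 FPKM in MuSC, 38.9-fold higher (log2 difference 5.28, SE 0.52, limma adjusted p = 3.2e-06). All 3 chains were higher in every fresh library than in either MuSC library, and in MuSC only Col6a1 of the 3 was above 3 FPKM. The ratio of Col6a1 to Col6a2 was 4.14 to 4.67 in fresh SMMC, 22.6 and 22.1 in MuSC.

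**Figure D3:**
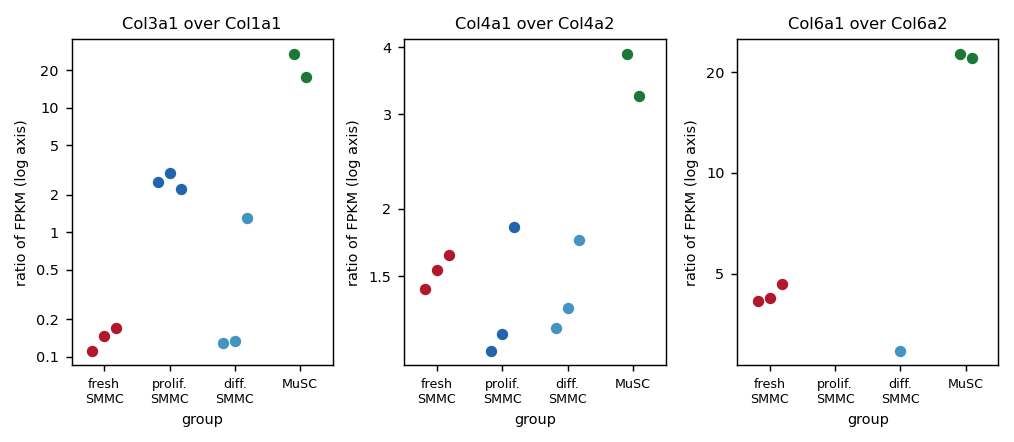
Points give the ratio of the FPKM of 2 collagen chains in each bulk library, on a log axis, for libraries in which both chains were at 1 FPKM or more, with 1 panel per pair and 1 column per group. In all 3 pairs both MuSC points lie above all fresh SMMC points, for example 3.88 and 3.25 against 1.42 to 1.64 for Col4a1 over Col4a2.

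Of the 7 tested fibril-associated chains, 6 were higher and 1 lower in fresh SMMC, beside 41.7% higher and 18.0% lower among all genes tested. Col9a2, Col14a1, Col20a1 and Col22a1 reached 1 FPKM in fresh SMMC libraries only. The filter thus fixed their direction in advance, and their calls add nothing to this count. Col12a1, which coats type I fibrils in tendon and fascia, stood at 201, 149 and 108 FPKM in fresh SMMC and at 1.73 and 1.94 FPKM in MuSC. That made it 52.5-fold higher in fresh SMMC (log2 difference 5.71, SE 0.34, limma adjusted p = 5.6e-08). Col16a1 stood at 36.6, 24.1 and 19.7 FPKM against 0.163 and 0.386 FPKM (21.2-fold higher, limma adjusted p = 4.0e-07). In both cases fresh SMMC replicate 1 was the highest and replicate 3 the lowest library, and no fresh library came near the MuSC values.

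Col22a1, a marker of the junction between muscle and tendon, stood at 67.1, 29.9 and 13.9 FPKM in fresh SMMC and at 0.0260 and 0.0231 FPKM in MuSC. Col20a1 stood at 49.9, 21.1 and 23.5 FPKM in fresh SMMC and at 0.170 and 0.163 FPKM in MuSC. They were 30.8-fold and 25.9-fold higher in fresh SMMC (limma adjusted p = 1.7e-06 and 1.2e-07), and both varied between the fresh libraries more than the type IV chains did. The short-chain collagen gene Col8a1, known from vessel walls, stood at 58.4, 38.5 and 17.5 FPKM in fresh SMMC and at 2.99 and 3.48 FPKM in MuSC, 8.31-fold higher (log2 difference 3.05, SE 0.47, limma adjusted p = 1.3e-04).

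The 2 genes higher in MuSC were Col19a1 and Col15a1. Col19a1, a fibril-associated chain found at basement membrane zones, stood at 0.345, 1.22 and 0.706 FPKM in fresh SMMC and at 28.9 and 23.1 FPKM in MuSC. That made it 15.6-fold lower in fresh SMMC (log2 difference -3.96, SE 0.42, limma adjusted p = 6.2e-06). Col15a1, which links basement membranes to collagen fibrils, was named after its values were seen and stood at 5.40, 5.29 and 4.37 FPKM in fresh SMMC, at 20.5 and 19.0 FPKM in MuSC. It was 3.46-fold lower in fresh SMMC (log2 difference -1.79, SE 0.19, limma adjusted p = 6.9e-06). For both genes every MuSC library lay above every fresh SMMC library.

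Proliferating SMMC were then compared with fresh SMMC, which asks what culture did to the same sorted population. Among the 36 tested genes 31 fell, 1 rose and 4 were not called, while of all genes tested 35.4% fell and 33.1% rose. The median log2 difference was -2.50 over the 36 genes and -0.06 over all genes tested, where other scalings moved the latter to between -0.19 and 0.14. All 11 fibril-forming, all 5 tested type IV and all 3 tested type VI genes fell. The gene that rose was Col19a1. The marker sums of tenocytes, Schwann cells, pericytes and fibro-adipogenic progenitors given above were also lower in culture. In proliferating SMMC the Sfrp5 mesenchymal markers summed to 20.9 to 26.2 FPKM, the capillary endothelial markers to 0.379 to 0.981, the endothelial markers to 6.89 to 9.58 and the erythroid markers to 0.0234 to 0.442. The sums of muscle stem cell and skeletal muscle fibre markers went the other way. Muscle stem cell markers summed to 1616 to 1695 FPKM in proliferating SMMC, against 803 to 1118 in fresh SMMC. Skeletal muscle fibre markers summed to 614 to 1593 FPKM, against 60.3 to 117. Vascular smooth muscle marker sums were lower in proliferating SMMC, at 599 to 844 FPKM against 1188 to 1845 in fresh SMMC. In differentiating SMMC they were 1021 to 1506 FPKM, which overlapped the fresh range. The part of all these markers in the differences was not tested. This comparison and the first share the fresh SMMC libraries.

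Col1a1 stood at 2.88, 4.06 and 5.77 FPKM in proliferating SMMC, 257-fold below fresh SMMC (log2 difference -8.01, SE 0.71, limma adjusted p = 9.0e-07). Col1a2 stood at 7.76, 6.47 and 10.3 FPKM, 191-fold lower (limma adjusted p = 2.2e-07). Col3a1 stood at 7.28, 12.2 and 12.8 FPKM, 16.1-fold lower (limma adjusted p = 3.6e-08). The fibrillar chains thus fell by unequal amounts, and the ratio of Col3a1 to Col1a1 went from at most 0.169 in fresh SMMC to between 2.21 and 3.02 in proliferating SMMC.

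Type VI chains were below 1 FPKM in all 3 proliferating libraries. Col6a1 stood at 0.369, 0.241 and 0.716 FPKM in proliferating SMMC, 224-fold lower than in fresh SMMC (log2 difference -7.81, SE 0.36, limma adjusted p = 5.4e-09). Col6a2 and Col6a3 were 64.9-fold and 37.1-fold lower, with 0.0383 to 0.307 FPKM and 0.366 to 0.884 FPKM left (limma adjusted p = 1.2e-08 and 9.1e-07). The type IV chains kept more: Col4a1 stood at 6.05, 8.56 and 11.9 FPKM (log2 difference -3.58, limma adjusted p = 3.1e-07) and Col4a2 at 5.55, 7.30 and 6.45 FPKM (10.2-fold lower, limma adjusted p = 7.3e-07). Col4a5 was listed at 0 in all 3 proliferating libraries.

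Col11a1 had 0.00818 to 0.438 FPKM left in proliferating SMMC, Col12a1 2.70 to 3.34, Col16a1 0.221 to 0.577, Col20a1 0 to 0.0422 and Col22a1 0 to 0.0192 FPKM. With 1 added to each FPKM they were 41.1-fold, 36.9-fold, 20.2-fold, 29.5-fold and 31.4-fold lower than in fresh SMMC, and no group ranges overlapped. These folds do not rank the falls in plain FPKM, where Col22a1 went from 37.0 to 0.00640 on average and Col12a1 from 153 to 3.04. Within type V, Col5a3 fell to 0.160, 0.445 and 0.336 FPKM, 25.5-fold lower (limma adjusted p = 9.6e-08). Col5a2 stood at 24.5, 30.6 and 27.1 FPKM and was 2.35-fold lower (log2 difference -1.23, SE 0.20, limma adjusted p = 1.7e-04), which left it the most abundant collagen chain gene of these libraries.

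Col8a1 stood apart from these falls in its values, at 24.2, 29.1 and 24.5 FPKM in proliferating SMMC, inside the fresh range, and the log2 difference of -0.39 (SE 0.42) was not called (limma adjusted p = 0.430). Col8a2, the partner chain of the type VIII hexagonal network, fell from 14.1 ± 2.42 to 0.00382 ± 0.00661 FPKM (SD, n = 3 each). With 1 added to each FPKM, Col8a2 was 14.9-fold lower (limma adjusted p = 3.8e-09). Col19a1 stood at 2.19, 2.43 and 6.97 FPKM in proliferating SMMC, all above the fresh values, and was 2.58-fold higher (log2 difference 1.37, SE 0.38, limma adjusted p = 0.00621), which was still below both MuSC libraries. The 4 genes not called were Col7a1, Col8a1, Col25a1 and Col26a1.

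**Figure D4:**
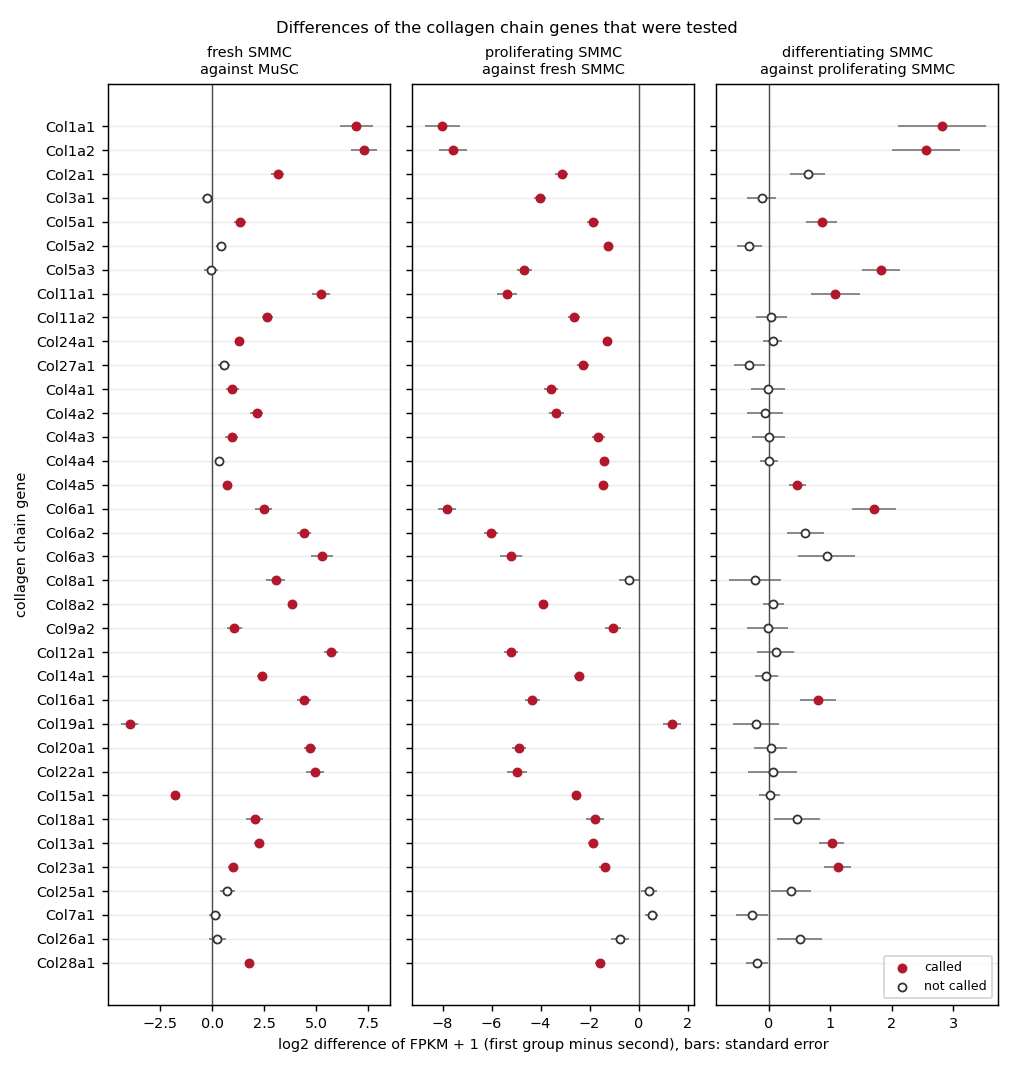
Points give the log2 difference in FPKM + 1 for the 36 tested collagen chain genes in 3 comparisons, with 1 panel each, bars the standard error, filled points genes called at an adjusted p under 0.05 and open points genes not called. Filled points lie right of 0 for 26 genes in the first panel, left of 0 for 31 in the second, and right of 0 for 10 in the third.

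Differentiating SMMC were compared with proliferating SMMC. Both came from the SMMC sort and were cultured, but the labels used here give no culture time for the differentiating cells. Differentiation, culture time and culture conditions therefore cannot be told apart here. Of the 36 genes, 10 rose, 0 fell and 26 were not called in limma's test, while of all genes tested 20.9% rose and 19.6% fell. At an unadjusted limma p under 0.05, 11 rose and 0 fell, and 0 fell under every other setting tried. The median log2 difference was 0.07 over the 36 genes and 0.00 over all genes tested. The genes that rose were Col1a1, Col1a2, Col5a1, Col5a3, Col11a1, Col4a5, Col6a1, Col16a1, Col13a1 and Col23a1. Col4a5 and Col5a1 lost their calls under 6 of 14 and 4 of 15 other settings. The count was 6 without differentiating SMMC replicate 1 or replicate 2, 13 without replicate 3 and 6 with a pseudocount of 10 FPKM. Skeletal muscle fibre markers summed to 13269 to 16868 FPKM in differentiating and 614 to 1593 FPKM in proliferating SMMC.

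Col1a1 stood at 89.6, 69.9 and 6.26 FPKM in differentiating SMMC, 7.05-fold above proliferating SMMC (log2 difference 2.82, SE 0.71, limma adjusted p = 0.00708). Col1a2 stood at 91.9, 98.6 and 15.4 FPKM, 5.90-fold higher (log2 difference 2.56, SE 0.56, limma adjusted p = 0.00314). Replicates 1 and 2 were far above replicate 3, which itself lay above the highest proliferating library for both chains. Without replicate 3 the log2 differences were 3.97 and 3.41, and with only the 2 groups fitted the Col1a1 call was lost (log2 difference 2.82, limma adjusted p = 0.0733).

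Col6a1 stood at 6.75, 4.60 and 1.34 FPKM (3.26-fold higher, limma adjusted p = 0.00234) and Col5a3 at 6.69, 3.65 and 1.78 FPKM (3.54-fold higher, limma adjusted p = 5.8e-04). Both chains showed the same order, with replicate 3 lowest and every library above the proliferating range. The Col6a1 call was lost with a pseudocount of 10 FPKM (log2 difference 0.43, limma adjusted p = 0.0719). Col6a2 (0.838, 1.56 and 0.0826 FPKM) and Col6a3 (6.23, 2.04 and 0.257 FPKM) were not called (limma adjusted p = 0.149 and 0.128), and both were called higher without replicate 3. Col11a1 (2.12, 2.93 and 0.190 FPKM) and Col16a1 (1.85, 1.91 and 0.503 FPKM) overlapped the proliferating range and were called only just (limma adjusted p = 0.0473 and 0.0499). Both calls were lost with TMM, with quantile normalization and with a pseudocount of 10 FPKM, where the log2 differences were 1.00, 0.87 and 0.20 for Col11a1 and 0.73, 0.56 and 0.14 for Col16a1.

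Several chains showed no difference that the spread allowed to be called. Col3a1 stood at 11.4, 9.33 and 8.18 FPKM in differentiating SMMC, Col4a1 at 9.55, 11.4 and 5.39, and Col4a2 at 7.98, 8.68 and 3.09 (limma adjusted p = 0.745, 0.979 and 0.901). Col5a2 stood at 21.8, 26.6 and 17.4 FPKM and Col8a1 at 22.9, 38.3 and 11.9 (limma adjusted p = 0.237 and 0.723). Col12a1 stood at 5.73, 3.21 and 1.89 FPKM and Col19a1 at 3.23, 1.49 and 4.31 (limma adjusted p = 0.821 and 0.706). Col20a1 and Col22a1 stayed below 0.13 FPKM. In all 9 genes the differentiating and proliferating ranges overlapped.

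Against fresh SMMC, differentiating SMMC had 30 genes lower, 2 higher (Col19a1 and Col25a1) and 4 not called, while 33.3% of all genes tested were lower and 34.7% higher. The median log2 difference was -2.52 over the 36 genes and 0.03 over all genes tested. Col19a1 was 2.22-fold higher (limma adjusted p = 0.0162), and its call was lost with a pseudocount of 10 FPKM (limma adjusted p = 0.0914), without fresh SMMC replicate 1 (0.067) and without differentiating SMMC replicate 3 (0.0666). Col25a1 was 1.73-fold higher with overlapping groups (limma adjusted p = 0.045), and its call was lost under 10 of 14 other settings, with an adjusted p of up to 0.178. Col1a1 and Col1a2 were 36.5-fold and 32.4-fold lower (limma adjusted p = 4.0e-05 and 7.8e-06), Col6a1 68.6-fold and Col12a1 34.2-fold lower (limma adjusted p = 3.8e-08 and 4.1e-08). Col8a1 was not called (1.53-fold lower, limma adjusted p = 0.215), except without fresh SMMC replicate 3 (log2 difference -1.08, limma adjusted p = 0.0297). This comparison shares its fresh libraries with the first and its differentiating libraries with the previous one.

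The genes that fold, cut, cross-link, bind and degrade collagen were counted from lists that were chosen with earlier results of these data known. Against MuSC, fresh SMMC had 16 of 21 tested folding and modification genes higher and 2 lower, beside 41.7% higher and 18.0% lower among all genes tested. Of the cleavage and cross-linking genes 8 of 11 were higher and 1 lower, and of the receptor genes 8 of 10 were higher and 0 lower. All 4 of 4 tested collagenase genes were higher. The median log2 differences of the lists were 2.12, 3.08, 1.92 and 3.99 in this order, against 0.45 over all genes tested. In proliferating against fresh SMMC the calls were 1 higher and 13 lower, 2 and 9, 1 and 8, and 0 and 4 in the same order of lists, beside 33.1% higher and 35.4% lower among all genes tested. In differentiating against proliferating SMMC they were 7 higher and 3 lower, 6 and 1, 1 and 1, and 1 and 0, beside 20.9% higher and 19.6% lower among all genes tested. The 3 folding genes lower became 1 with no filter, with only the 2 groups fitted and without differentiating SMMC replicate 1 or 3, and 0 without proliferating SMMC replicate 1. The collagenase call, that of Ctsk, was lost under 10 of 15 other settings, with a limma adjusted p of up to 0.182, and without differentiating SMMC replicate 3 the list had 3 higher.

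Among the folding genes, Serpinh1, the collagen chaperone, was lower in fresh SMMC than in MuSC (614 against 1134 FPKM on average, 1.81-fold, limma adjusted p = 0.037). That call was lost under 7 of 14 other settings, among them the replicate block and the removal of any fresh SMMC library or of MuSC replicate 1, with an adjusted p of up to 0.255. P4hb, the disulfide isomerase subunit of prolyl 4-hydroxylase, was higher (447 against 223 FPKM, 1.94-fold, limma adjusted p = 0.013), a call lost with TMM (0.325) and without fresh SMMC replicate 1 (0.0501) or MuSC replicate 2 (0.103). P4ha1, its catalytic subunit, was 4.36-fold higher in fresh SMMC than in MuSC, 5.56-fold lower in proliferating than in fresh SMMC and 4.60-fold higher again in differentiating SMMC (limma adjusted p = 5.0e-06, 3.6e-07 and 4.9e-06). The foldases Fkbp10 and Ppib were 2.47-fold and 3.88-fold higher in fresh SMMC than in MuSC (limma adjusted p = 0.016 and 3.8e-05), and the Fkbp10 call was lost with no filter, with TMM and without fresh SMMC replicate 1 or MuSC replicate 2 (adjusted p up to 0.174). In proliferating SMMC Serpinh1, P4hb and Fkbp10 stood at 738, 517 and 312 FPKM and were not called against fresh SMMC (limma adjusted p = 0.44, 0.38 and 0.084), though Fkbp10 was with the replicate block and with only the 2 groups fitted (0.0466 and 0.00936).

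Of the cleavage and cross-linking genes, Pcolce, the enhancer of C-propeptide removal, averaged 1043 FPKM in fresh SMMC, 18.3 in MuSC, 87.3 in proliferating and 271 in differentiating SMMC. Lox, which starts cross-links, averaged 247, 5.76, 7.01 and 65.1 FPKM in the same order. Both passed the test in all 3 of these comparisons, higher in fresh SMMC, lower in culture and higher on differentiation, where the Pcolce call was lost under 5 of 15 other settings (adjusted p up to 0.0879). Adamts2, which removes N-propeptides, averaged 161 FPKM in fresh SMMC and 1.76 in proliferating SMMC (62.3-fold lower, limma adjusted p = 2.8e-07). Pcolce2 went the other way in culture, from 58.1 to 167 FPKM (3.13-fold higher, limma adjusted p = 8.3e-04), and Bmp1, the C-proteinase, fell from 112 to 29.7 FPKM (3.70-fold, limma adjusted p = 1.3e-04).

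Of the receptors, Itga1, the α1 integrin of type IV collagen, averaged 47.8 FPKM in fresh SMMC, 0.514 in MuSC and 0.477 in proliferating SMMC. Ddr2, the receptor kinase for fibrillar collagen, was not called between fresh SMMC, at 96.4 FPKM on average, and MuSC, at 114 (limma adjusted p = 0.63), and it was 3.27-fold lower in proliferating SMMC (limma adjusted p = 3.3e-04). Ddr1, its relative, rose 3.63-fold in proliferating SMMC, to 46.5 FPKM (limma adjusted p = 7.6e-06), and Itgb1, the shared β1 subunit, was 4.33-fold higher in fresh SMMC than in MuSC (limma adjusted p = 0.0018). Mrc2, which takes up collagen fragments, was 4.78-fold higher in fresh SMMC (limma adjusted p = 5.9e-04). Mmp2, a gelatinase, averaged 1186 FPKM in fresh SMMC, 72.0 in MuSC and 16.3 in proliferating SMMC, and Ctsk, Mmp14 and Mmp13 were higher in fresh SMMC than in MuSC too (66.0-fold, 16.1-fold and 7.52-fold, limma adjusted p = 8.9e-05, 2.1e-06 and 6.9e-06).

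The single-cell libraries of whole muscle show which cells carry each chain. Library 1 held 6144 cells with a median of 2516 UMIs (unique molecular identifiers, each tagging 1 captured transcript) and library 2 held 6297 cells with a median of 2027. The libraries shared 53 cell barcodes. Cells were clustered without the collagen genes and named from markers, which gave 14 classes of at least 100 cells, and 2329 of 12385 cells stayed in unnamed clusters. Scrublet called 52 doublets in library 1 and 4 in library 2, which is 0.0635% of its cells, so doublets were not effectively removed there. Levels are the UMIs of a gene in the summed cells of a class, scaled to a common total of all UMIs (CPM), given for library 1 and then library 2, with exact Poisson intervals that cover counting error only. UMIs count transcripts by their 3' ends and are not divided by length. With 2 libraries of 1 condition no test was made. Of the 44 genes, 35 were listed in both tables, and 23 reached 50 CPM in both libraries in some class. Col19a1 did not, with 20.1 and 12.3 CPM in its highest class, and was plotted by cell class in addition to the 23.

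Summed over all listed chains, tenocyte-like cells held 37288 and 22591 CPM. Then came fibro-adipogenic progenitors of the Smoc2 and Cxcl14 type with 21338 and 11337, and below them those of the Pi16 and Dmkn type with 12670 and 8434 and Sfrp5 mesenchymal-like cells with 9144 and 8754, whose order differed between the libraries. Pericyte-like cells held 2824 and 3139, Schwann cell-like cells 2884 and 2462, and vascular smooth muscle-like cells 2224 and 2592, so the order of these 3 classes differed between the libraries. Capillary (1193 and 1362), venous (1258 and 852) and arterial (1143 and 985) endothelial-like cells and muscle stem cell-like cells (1053 and 800.4) lay close together and changed order between the libraries. Macrophage-like, B cell-like and T cell-like cells held 199 to 304 CPM. Neutrophil-like cells, only 38 and 21 in number, held 1882 (95% interval 1618 to 2176) and 448 CPM (306 to 632), above muscle stem cell-like cells in library 1. Free RNA and undetected doublets can leave collagen UMIs in immune cells. Below, the levels of muscle stem cell-like cells are set against the B cell-like class, the largest of the immune classes. For the other classes no such background is given.

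**Figure D5:**
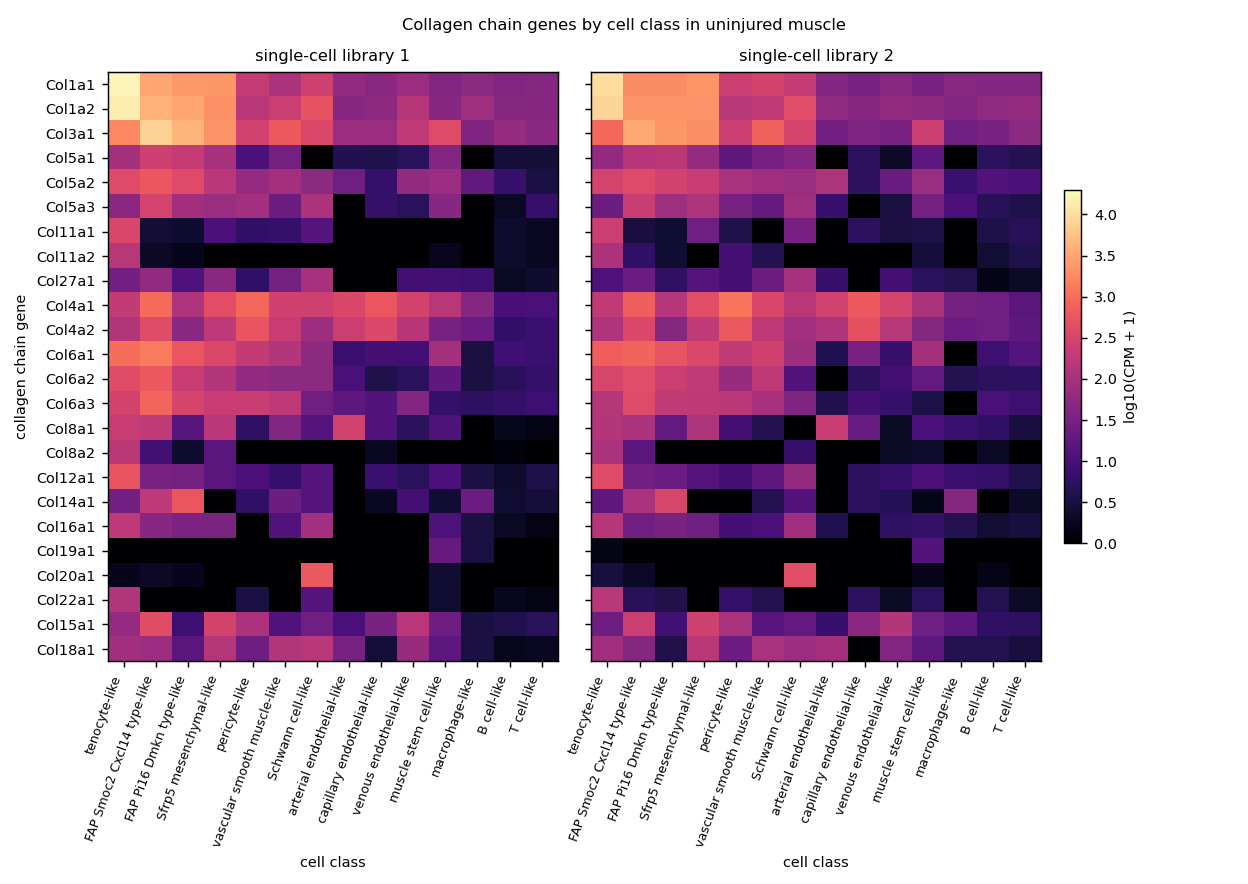
Colour gives log10(CPM + 1) for 24 collagen chain genes (rows) in 14 cell classes (columns), with 1 panel per single-cell library; FAP stands for fibro-adipogenic progenitor. Col1a1 and Col1a2 are brightest in tenocyte-like cells, Col4a2 in pericyte-like, Col20a1 in Schwann cell-like and Col19a1 in muscle stem cell-like cells.

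Type I and type XI chains led in tenocyte-like cells. Col1a1 stood at 16909 and 9870 CPM there, against 3193 and 1843 in the Smoc2 type, 2426 and 1873 in the Pi16 type and 2337 and 2226 in Sfrp5 cells. The order of those 3 classes differed between the libraries. Col11a1 stood at 342 and 228 CPM and Col11a2 at 147 and 114, with at most 29.9 and 8.31 in any other class. Col12a1 (541 and 397), Col16a1 (170 and 137) and Col8a2 (162 and 109) were led by the same class. Col22a1 stood at 125 CPM (95% interval 108 to 144) and 150 (133 to 168) in tenocyte-like cells and at 12.8 or less elsewhere.

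Col3a1, Col5a2, Col5a3, Col6a1, Col6a2 and Col6a3 were highest in the Smoc2 type in both libraries. Col3a1 stood at 7724 and 3245 CPM there, 4339 and 2373 in the Pi16 type and 1733 and 888 in tenocyte-like cells. Col6a1 (1326 and 776), Col6a2 (637 and 423) and Col6a3 (830 and 386) led there, as did Col5a2 (584 and 386) and Col5a3 (299 and 223). Col5a1 was shared between the Smoc2 type (247 and 142) and the Pi16 type (204 and 161). Col14a1 stood at 562 and 321 in the Pi16 type and at 168 and 109 in the Smoc2 type. The ratio of Col3a1 to Col1a1 UMIs was 0.103 and 0.0899 in tenocyte-like cells, 2.42 and 1.76 in the Smoc2 type, 5.68 and 2.56 in vascular smooth muscle-like and 9.70 and 6.92 in muscle stem cell-like cells.

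The basement membrane chains were spread over vessel, fibroblast-like and nerve sheath classes. Col4a1 stood at 841 and 1144 CPM in pericyte-like cells, 935 and 713 in the Smoc2 type and 550 and 614 in capillary endothelial-like cells, so its leading class differed between the libraries. Col4a2 stood at 527 and 610, 407 and 344, and 362 and 477 in the same classes. Col15a1 was spread over Sfrp5 cells (288 and 257), the Smoc2 type (416 and 234), venous endothelial-like (153 and 132) and pericyte-like cells (114 and 103). Col18a1 stood at 153 and 77.9 in Schwann cell-like, 139 and 163 in Sfrp5 and 126 and 104 in vascular smooth muscle-like cells, and its leading class differed between the libraries. Col8a1 was led by arterial endothelial-like cells, with 280 (225 to 345) and 208 CPM (161 to 264), before tenocyte-like cells with 215 and 131.

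Col20a1 was highest in Schwann cell-like cells in both libraries, at 613 CPM (95% interval 452 to 812) and 443 (348 to 556), from 30 and 75 cells. No other of the 14 classes was above 2.09. Col27a1 was also highest there, at 102 and 95.8 CPM, against 57.5 and 22.6 in the Smoc2 type. Its Schwann cell-like values rest on only 8 and 16 UMIs.

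Muscle stem cell-like cells, 380 and 577 of them, had higher CPM than B cell-like cells in both libraries for 17 of the 24 genes plotted by cell class. The 95% intervals lay apart in both libraries for 10 of them, Col19a1 included. The same was not counted over all genes, so these counts do not set the collagen genes apart from others. Col3a1 stood at 389.5 CPM (357 to 424) and 224, from 524 and 346 UMIs, against 66.0 and 34.0 in B cell-like cells. Col4a1 (155 and 112 against 8.54 and 25.5), Col6a1 (94.4 and 93.3 against 7.28 and 6.90) and Col5a2 (74.3 and 71.9 against 5.78 and 11.7) were also higher than in B cell-like cells, as were Col5a3 (45.3 and 29.8 against 1.00 and 3.72) and Col15a1 (23.8 and 25.3 against 3.01 and 4.78). Col6a3 was not, with 5.20 and 2.59 against 5.27 and 9.03. Nor was Col1a1, with 40.1 (30.2 to 52.4) and 32.4 (24.0 to 42.7) against 38.7 and 43.0. Col19a1 stood at 20.1 CPM (13.2 to 29.2) and 12.3 (7.41 to 19.2) from 27 and 19 UMIs, and B cell-like cells had 0 UMIs, with an exact Poisson upper bound of 0.926 and 1.96 CPM. The Col4a1 to Col4a2 ratio of UMIs was 4.98 and 2.58 in muscle stem cell-like cells, against 1.60 and 1.88 in pericyte-like and 1.52 and 1.29 in capillary endothelial-like cells, and 2.49 and 3.14 in the Pi16 type.

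Several collagen chain genes lie beside each other in the genome. On chromosome 1 of GRCm38.p6, Col3a1 (45311538 to 45349706, plus strand) and Col5a2 (45374331 to 45503282, minus strand) point at each other across 24624 bases. Col9a1 and Col19a1 do so across 4944 bases, and Col6a1 and Col6a2 lie 85161 bases apart on the same strand of chromosome 10. Col3a1 and Col5a2 were both high in MuSC, at 221 ± 65.9 and 49.6 ± 10.9 FPKM (SD, n = 2), whereas Col9a1 stood at 0.00469 and 0.00907 FPKM in MuSC and its neighbour Col19a1 at 28.9 and 23.1 FPKM.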

How the data were processed

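Gene-level FPKM values of 11 bulk libraries were deposited by the authors, and the submitters' processing notes name STAR 2.5.1b, HISAT2 2.1.0, StringTie, SAMtools 1.3.1 and mm10. For the annotation and strand setting, not given in the sources used here, nothing was assumed, and the depth behind the FPKM is unknown. Single-cell UMI counts of 2 libraries were deposited by the authors, with Cell Ranger 2.1.0 and 2.2.0 and Seurat 2.2 and 2.3.4 named in the submitters' processing notes. A further 4 FPKM columns matched no sample and were not used.

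The 13233 genes that reached 1 FPKM in 2 or more libraries were fitted with limma 3.58.1 in R 4.3.3 on log2(FPKM + 1), with 1 mean per group over all 11 libraries, a trended variance, 7 residual degrees of freedom and Benjamini-Hochberg adjustment at 0.05. The fit was tested on simulated data. Alternatives changed the pseudocount, the filter, the scaling (TMM from edgeR 4.0.16, quantile, or without the ribosomal gene Rn45s), the groups fitted and the libraries. Cells that had 200 genes or more and no more than 20% mitochondrial UMIs were clustered with scanpy 1.11.5 (2000 variable genes without collagens, 30 components, 15 neighbours, Leiden resolution 1). Scrublet doublets were left out, at an expected rate of 5%. Values are given in every library for genes averaging at least 20 FPKM in a group. They are given by cell class for genes at 50 CPM or more in both libraries in some class, and for Col19a1, which stayed below that. Of the listed pathway genes, at most 5 per list are named, by their largest group mean. The members and lists were chosen with earlier results of these data known.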

Additional observations from a re-analysis of the deposited data

How the results depend on the processing

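Against MuSC, fresh SMMC had 4 collagen genes lower with no filter, where 2761 of all 21553 genes tested were lower. With a 10 FPKM filter 16 collagen genes were higher. There 7892 genes were tested and 5233 called, 3539 of them higher. Differences not called changed sign for Col5a2 (-0.18 with TMM) and Col5a3 (0.01 without Rn45s, 0.03 with the replicate block). In proliferating against fresh SMMC the 10 FPKM filter left 6030 genes called, 2599 of them lower, and 19 collagen genes lower. With quantile normalization 3 collagen genes were higher (5039 of all genes), and with only the 2 groups fitted 2 were (4274 of all genes). In differentiating against proliferating SMMC, 6 collagen genes were higher with a pseudocount of 10 FPKM and 6 with only the 2 groups. Of all genes, 2582 and 2529 were higher under these settings. Col12a1 was at -0.06 with quantile normalization. In differentiating against fresh SMMC the 10 FPKM filter left 5911 genes called, 2473 of them lower, and 19 collagen genes lower. There 1 was higher with a pseudocount of 0.1 or 10 FPKM, the 10 FPKM filter, TMM, Rn45s left out or only the 2 groups. A higher filter tests fewer genes; otherwise the cause was not tested.

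Leaving out 1 library at a time gave 6 to 13 genes higher in differentiating than proliferating SMMC (6 without differentiating replicate 1 or 2) and 0 to 2 higher than in fresh SMMC (0 without fresh replicate 1). The log2 differences that changed sign, none of them called, ranged from -0.21 to 0.09 for Col5a3 and from -0.54 to 0.08 for Col3a1 against MuSC. Against proliferating SMMC they ranged from -0.24 to 0.26 for Col4a1, -0.29 to 0.33 for Col4a2, -0.35 to 0.01 for Col3a1, -0.45 to 0.21 for Col19a1, -0.21 to 0.40 for Col12a1, -0.61 to 0.19 for Col8a1 and 0.00 to 0.05 for Col20a1. A lone MuSC library is assumed to vary like the other groups. Correlations of same-numbered deviations from the group means ran from -0.128 to 0.142. Deviations within a group of 2 or 3 libraries are tied to each other, so these values cannot settle whether replicate numbers pair the samples. With the replicate block 26 and 2, 1 and 31, 11 and 0, and 2 and 30 collagen genes were higher and lower in the 4 comparisons. Of all calls, 69.5%, 48.4%, 52.0% and 50.8% were higher in the same order.

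The values that follow are means over the 2 libraries, and the main values are given by library. Summed collagen CPM in Sfrp5 cells was 10401 at lower clustering resolution and 9917 with collagen genes allowed in clustering. It was 9234 without the highest 5% of doublet scores, an alternative chosen after seeing the data. The main values were 9144 and 8754. At lower resolution arterial endothelial-like cells stood at 936 (main values 1143 and 985) and macrophage-like cells at 333 (304 and 269.8). Without those doublet scores macrophage-like cells stood at 212 and pericyte-like cells at 3239 (main values 2824 and 3139).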
